A study of Homo sapiens with 5 samples.

Results

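The DNA replication machinery was followed as 55 genes, chosen by name for their place in origin licensing, helicase, polymerase, clamp, Okazaki fragment and histone loading work. All 55 were among the 20030 gene symbols of each deposited table, and all 55 reached the 1 FPKM in at least 1 library that was needed for testing. FPKM counts sequenced fragments per length assigned to the gene and per depth of the library. That length depends on the annotation, which the sources used here do not give. Levels of different genes can therefore be set side by side only roughly. The cells were HCT116, a human colorectal cancer line, and carried no other stated genetic change. Per the labels, 1 library came from cells with SP1 and SP3 knockdown, 1 from SP3 knockdown, 1 from SP1 knockdown and 2 from control cells. The knockdown groups are named by siRNA here. An siRNA is a short RNA duplex that lowers its target transcript. The sources used here do not give the control treatment, the dose of siRNA or the time after it. No knockdown group had a replicate, so each knockdown was assumed to vary like the controls. No label says whether the controls came from separate cultures, so the p-values reflect spread among these samples alone, and that spread may be technical.

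Preparation for replication begins in G1, when the origin recognition complex, CDC6 and CDT1 load the MCM ring onto DNA. Kinases of the S phase then turn that ring into the active helicase by adding CDC45 and the GINS complex. Polymerase alpha-primase lays down primers, polymerase epsilon extends the leading strand and polymerase delta the lagging strand, both held on DNA by the PCNA clamp that the RFC loader opens. FEN1 and LIG1 trim and seal Okazaki fragments, and histone chaperones rebuild chromatin behind the fork. Many of these genes are transcribed most strongly around the entry to S phase under E2F control. SP1 and SP3, the knocked-down proteins, are related zinc finger transcription factors that recognise GC boxes, which many of these promoters hold.

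The SP1 transcript stood at 16.1 FPKM in the double knockdown, 27.5 FPKM with SP3 siRNA, 15.8 FPKM with SP1 siRNA and 36.6 and 37.2 FPKM in the controls. Every knockdown library was below both controls for it, the SP3 siRNA library included. The SP3 transcript stood at 6.67 FPKM in the double knockdown, 5.42 FPKM with SP3 siRNA, 14.3 FPKM with SP1 siRNA and 13.3 and 13.0 FPKM in the controls. Its level with SP1 siRNA was 109% of the control mean. In the double knockdown the SP1 transcript was at 43.6% of the control mean (95% counting interval 39.7 to 47.8%) and the SP3 transcript at 50.8% (46.5 to 55.3%). The SP3 transcript was at 41.3% (37.7 to 45.2%) of the control mean with SP3 siRNA alone, and the difference between the double knockdown and SP3 siRNA missed the threshold for it (log2 difference 0.26, adjusted p = 0.0708, limma). Library denominators, recovered from the FPKM values, were 14678068 to 15970519 reads. Of the epithelial markers EPCAM, CDH1, KRT8, KRT18, KRT19 and CLDN4 were expressed and CDX1 was at 0 in every library, with a summed level of 4291, 4434 and 3774 FPKM in the double, SP3 and SP1 knockdowns and 4640 and 4639 FPKM in the controls. Of the 6 expressed ones CDH1, KRT18 and CLDN4 fell in each knockdown, KRT8 rose in the double and SP3 knockdowns, KRT19 rose in the double knockdown and EPCAM rose with SP1 siRNA. Summed levels of 8 leukocyte markers were 75.6, 94.5 and 57.3 FPKM in the double, SP3 and SP1 knockdowns and 81.7 and 78.9 FPKM in the controls, most of it from CD68, which many cell types express. The leukocyte genes LYZ, LAPTM5 and TYROBP were nevertheless higher in the controls. LYZ was at 0.0449, 0.124 and 0.258 FPKM in the double, SP3 and SP1 knockdowns and at 11.2 and 12.2 FPKM in the controls. LAPTM5 was at 0.121, 0.140 and 0.377 FPKM in the double, SP3 and SP1 knockdowns and at 3.55 and 3.56 FPKM in the controls, and TYROBP was listed at 0 in the 3 knockdown libraries and at 2.05 and 1.49 FPKM in the controls. Fibroblast markers summed to between 4.41 and 9.04 FPKM and endothelial markers to between 0.248 and 0.439 FPKM over the 5 libraries. The part of these markers in the results on replication genes was not tested.

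Replication transcripts were mostly lower after either single siRNA, and less so after both together. With SP3 siRNA 40 of the 55 genes (72.7%) fell and 4 (7.27%) rose, while over all 11725 genes tested 32.0% fell and 29.6% rose. With SP1 siRNA 35 (63.6%) fell and 7 (12.7%) rose, against 28.9% and 36.5% of all genes. In the double knockdown 23 (41.8%) fell and 9 (16.4%) rose, against 31.1% and 31.8% of all genes. The test was limma on log2(FPKM + 1) with a Benjamini-Hochberg adjusted p under 0.05, and every log2 difference given here is on that scale with its standard error. The median log2 difference of the 55 genes from the controls was -0.17 in the double knockdown, -0.54 with SP3 siRNA and -0.35 with SP1 siRNA. Over all genes the medians were 0.01, -0.02 and 0.06 in the same order. Without the first control the median of the 55 genes in the double knockdown was -0.096, and without the second it was -0.219. In bulk RNA, fewer cells in S phase and less transcript per cell cannot be told apart.

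Genes were also counted, without a test, where they lay at least 1.5-fold away from each control in 1 direction. By that count 9 of the 55 (16.4%) were lower and 4 (7.27%) higher in the double knockdown, against 16.7% and 15.0% of all genes, so the share of lower genes there was at the background. With SP3 siRNA 26 (47.3%) were lower and 1 (1.82%) higher, against 17.9% and 13.2%. With SP1 siRNA 17 (30.9%) were lower and 4 (7.27%) higher, against 14.6% and 18.9%. Between the controls, GINS3 differed by this much and the other 54 did not. The control means of the 55 genes ran from 1.55 to 55.3 FPKM with a median of 10.02 FPKM, and each gene had between 46 and 2746 reads in a library. The tested calls rest on a shared estimate of spread. When genes of low level were added to the fit, its prior degrees of freedom fell to 1.03 from 13.95, and 9, 13 and 14 of the 55 genes were called lower in the double, SP3 and SP1 knockdowns. Over all 17121 genes of that fit, lower calls became fewer too. The 55 genes were still called lower more often than all genes in each knockdown.

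**Figure D1:**
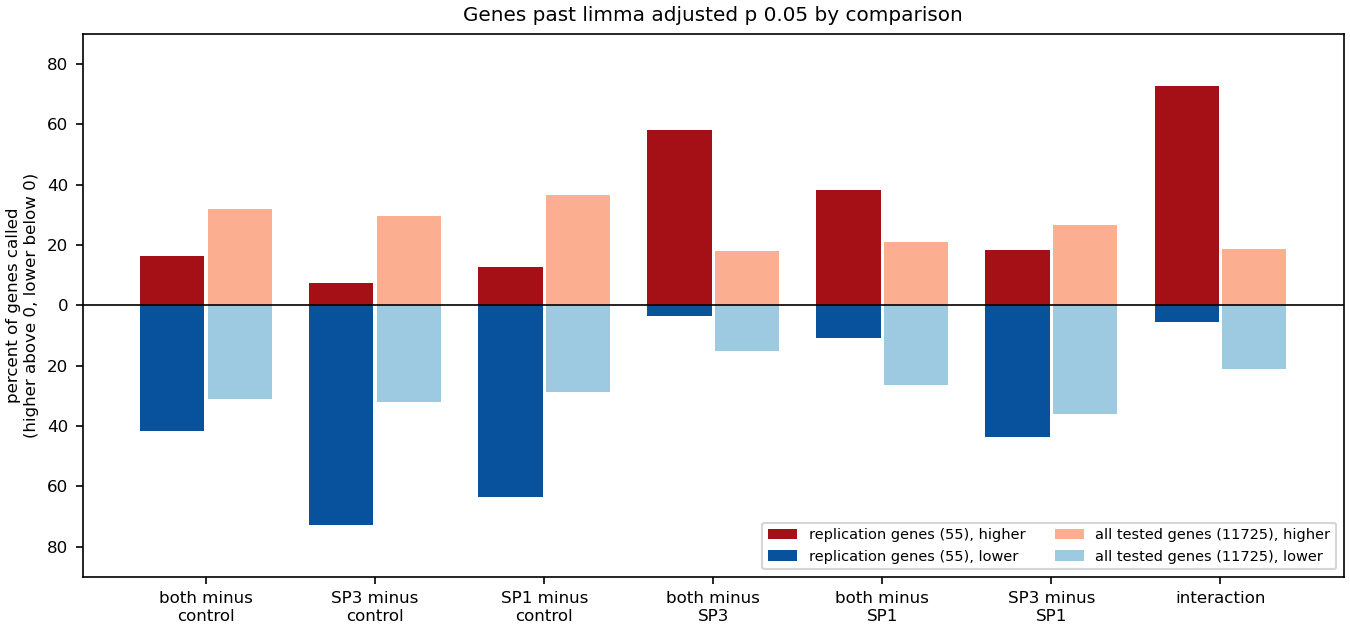
Percent of genes called by limma at an adjusted p under 0.05 in each of 7 comparisons, higher above the zero line and lower below it, for the 55 replication genes (dark) and all 11725 tested genes (pale). The replication genes exceed all genes on the lower side against the controls, and on the higher side in both comparisons of the double knockdown with a single knockdown and in the interaction.

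Promoter sequence was taken from the RefSeq table for GRCh38.p14, as the 250 bases before each gene's start. It held 48 of the 55 genes, and MCM4, MCM5, GINS4, POLD3, RPA2, RPA3 and DNA2 had no entry. Windows are shown for FEN1 and MCM2, which had the largest falls on the log2(FPKM + 1) scale, for GINS1, lowest with SP1 siRNA, for ASF1B, lowest with SP3 siRNA, for POLE4, which went opposite ways with the single siRNAs, and for MCM6, the helicase gene that was not called lower in any knockdown. FEN1 lies at chr11:61792661-61792910 on the plus strand, MCM2 at chr3:127598161-127598410 on the plus strand and GINS1 at chr20:25407423-25407672 on the plus strand. ASF1B lies at chr19:14136590-14136839 on the minus strand, POLE4 at chr2:74958393-74958642 on the plus strand and MCM6 at chr2:135876444-135876693 on the minus strand. Each window is upstream of its annotated transcript and reads 5′ to 3′ towards it. Capitals mark the GC box GGGCGG and the E2F forms TTTCGCGC, TTTGGCGC and TTTCCCGC, on either strand.
FEN1: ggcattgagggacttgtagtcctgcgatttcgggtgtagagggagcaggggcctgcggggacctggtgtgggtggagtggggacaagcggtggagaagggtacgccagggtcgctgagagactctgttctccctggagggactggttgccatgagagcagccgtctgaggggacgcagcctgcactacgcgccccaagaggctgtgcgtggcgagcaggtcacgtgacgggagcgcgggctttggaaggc
MCM2: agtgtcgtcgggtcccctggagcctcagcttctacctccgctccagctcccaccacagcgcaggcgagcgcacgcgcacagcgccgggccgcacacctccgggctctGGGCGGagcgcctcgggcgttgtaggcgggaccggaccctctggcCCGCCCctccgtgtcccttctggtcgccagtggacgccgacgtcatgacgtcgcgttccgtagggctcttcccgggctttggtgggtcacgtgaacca
GINS1: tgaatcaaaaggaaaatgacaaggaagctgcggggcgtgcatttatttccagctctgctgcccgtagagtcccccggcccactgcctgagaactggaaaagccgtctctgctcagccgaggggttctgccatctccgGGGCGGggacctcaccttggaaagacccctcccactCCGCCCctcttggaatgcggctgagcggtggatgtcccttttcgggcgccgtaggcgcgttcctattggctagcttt
ASF1B: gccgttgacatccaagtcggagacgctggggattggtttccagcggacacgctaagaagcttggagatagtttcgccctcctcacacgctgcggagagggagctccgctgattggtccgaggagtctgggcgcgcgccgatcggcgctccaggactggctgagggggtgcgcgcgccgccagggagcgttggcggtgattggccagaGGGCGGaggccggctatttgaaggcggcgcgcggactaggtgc
POLE4: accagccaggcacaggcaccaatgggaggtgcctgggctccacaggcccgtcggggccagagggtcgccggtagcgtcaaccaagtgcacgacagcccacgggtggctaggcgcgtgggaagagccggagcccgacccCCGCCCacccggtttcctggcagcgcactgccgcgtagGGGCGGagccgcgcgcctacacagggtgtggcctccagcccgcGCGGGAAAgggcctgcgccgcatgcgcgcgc
MCM6: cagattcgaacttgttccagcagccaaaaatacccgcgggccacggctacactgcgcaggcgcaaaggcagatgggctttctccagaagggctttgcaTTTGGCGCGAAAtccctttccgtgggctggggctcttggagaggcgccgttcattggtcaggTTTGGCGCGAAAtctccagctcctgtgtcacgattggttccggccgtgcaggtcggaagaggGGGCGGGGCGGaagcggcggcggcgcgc
The FEN1 window held neither motif, MCM2 and GINS1 held 2 GC boxes each and ASF1B 1. POLE4 held 2 GC boxes and 1 E2F form, and MCM6 held 2 overlapping GC boxes and 4 E2F matches in 2 overlapping pairs, 1 match on each strand in a pair.

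A gene counted as holding a motif if any of its windows did. Of the 48 genes 11 (22.9%) had 2 or 3 windows, while 29.1% of tested genes had more than 1. A GC box was held by 37 of the 48 genes (77.1%), against 76.9% of the 9273 tested genes with a window and 46.2% of all 27305 genes with a window. A CCAAT box, the NF-Y motif, was in 30 (62.5%), against 41.9% of tested genes. The E2F forms were in 16 (33.3%), against 4.84% of tested genes and 2.85% of all genes with a window. TTTGAA, the CHR element of mitotic promoters, was in POLE3 and ASF1B (4.17%), against 11.4% of tested genes. GC box and E2F matches overlapped in CDC7, PCNA and LIG1. The 37 genes with a GC box had a median log2 difference from the controls of -0.27 in the double knockdown, -0.64 with SP3 siRNA and -0.35 with SP1 siRNA. The 11 without one had medians of 0.02, -0.39 and -0.28 in the same order. The 16 genes with an E2F form had a median of 0.21 in the double knockdown, -0.23 with SP3 siRNA and -0.24 with SP1 siRNA. The 32 without one had medians of -0.29, -0.64 and -0.36 in the same order. These medians were not tested, and a match describes letters in a window, not bound protein.

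**Figure D2:**
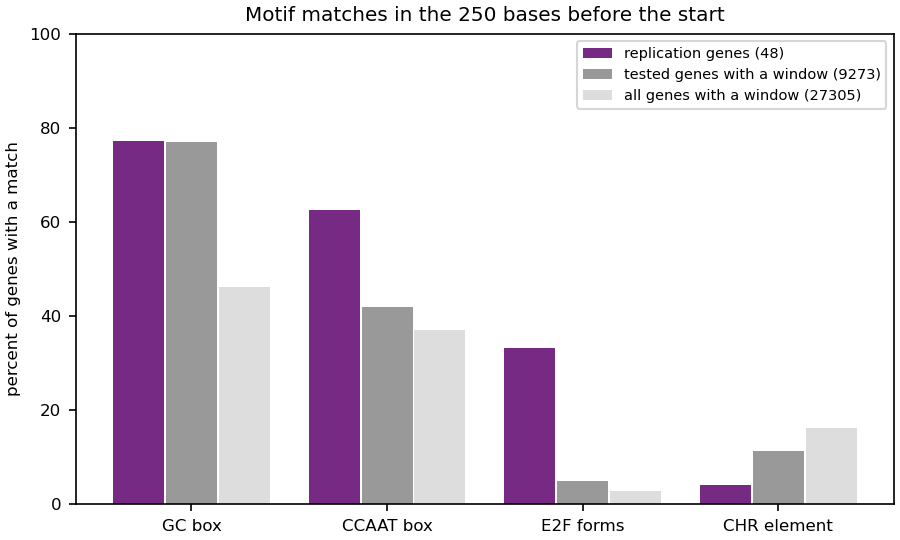
Percent of genes whose 250 bases before the start hold each motif on either strand, for the 48 replication genes with a window, the 9273 tested genes with a window and all 27305 genes with a window. Bars for the GC box are nearly level between replication and tested genes (77.1% and 76.9%), while those for the E2F forms differ (33.3% and 4.84%).

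Among the MCM2-7 helicase genes, MCM2, MCM4, MCM5 and MCM7 fell in every knockdown, while MCM3 and MCM6 did not. MCM2 was at 12.7 FPKM in the double knockdown, 5.93 FPKM with SP3 siRNA, 15.3 FPKM with SP1 siRNA and 25.7 and 26.2 FPKM in the controls. The SP3 siRNA library was far below the rest, at 22.9% of the control mean (20.4 to 25.6%), and the controls were highest. Its log2 difference from the controls was -0.97 ± 0.08 in the double knockdown (adjusted p = 7.1e-08), -1.96 ± 0.08 with SP3 siRNA (adjusted p = 5.11e-11) and -0.73 ± 0.08 with SP1 siRNA (adjusted p = 1.47e-06). MCM4 was at 15.1 FPKM in the double knockdown, 9.30 FPKM with SP3 siRNA, 9.67 FPKM with SP1 siRNA and 21.9 and 22.6 FPKM in the controls. Both single knockdowns were lowest and close to each other, and the double knockdown lay between them and the controls. Its log2 differences were -0.53 ± 0.08 in the double knockdown, -1.17 ± 0.08 with SP3 siRNA and -1.12 ± 0.08 with SP1 siRNA, all past the threshold. MCM5 was at 15.5 FPKM in the double knockdown, 12.0 FPKM with SP3 siRNA, 7.81 FPKM with SP1 siRNA and 18.1 and 19.2 FPKM in the controls. Here SP1 siRNA gave the lowest level, 42.0% of the control mean (37.5 to 46.9%), and the double knockdown the level nearest to the controls. MCM7, at 47.2 and 47.3 FPKM in the controls, fell to between 22.6 and 36.9 FPKM in the knockdowns.

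MCM3 went 2 ways. It was at 31.1 FPKM in the double knockdown, 17.2 FPKM with SP3 siRNA, 25.7 FPKM with SP1 siRNA and 20.7 and 20.4 FPKM in the controls. It rose in the double knockdown (log2 difference 0.57 ± 0.07, adjusted p = 7.83e-06) and with SP1 siRNA (0.31 ± 0.07, adjusted p = 0.00193), and fell with SP3 siRNA (-0.24 ± 0.07, adjusted p = 0.0104). MCM6, whose window holds 4 E2F matches, was at 20.4 FPKM in the double knockdown, 16.3 FPKM with SP3 siRNA, 15.8 FPKM with SP1 siRNA and 14.9 and 15.0 FPKM in the controls. It rose in the double knockdown (log2 difference 0.43 ± 0.08, adjusted p = 0.000254), and its log2 differences of 0.12 with SP3 siRNA (adjusted p = 0.203) and 0.07 with SP1 siRNA (adjusted p = 0.439) missed the threshold. MCM10, which helps to activate the helicase, was at 2.48 FPKM in the double knockdown, 1.11 FPKM with SP3 siRNA, 2.79 FPKM with SP1 siRNA and 5.64 and 4.34 FPKM in the controls. Like MCM2 it was lowest with SP3 siRNA, at 22.2% of the control mean (17.4 to 28.0%), a percentage below that of MCM2 but with an overlapping interval, and it fell in all 3 knockdowns. MCM8, a helicase known mainly from recombination repair, was at 1.85 FPKM in the double knockdown, 1.57 FPKM with SP3 siRNA, 1.60 FPKM with SP1 siRNA and 3.16 and 2.84 FPKM in the controls. It fell by a similar amount in each, with log2 differences of -0.49 ± 0.12, -0.64 ± 0.12 and -0.62 ± 0.12 for the double, SP3 and SP1 knockdowns.

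**Figure D3:**
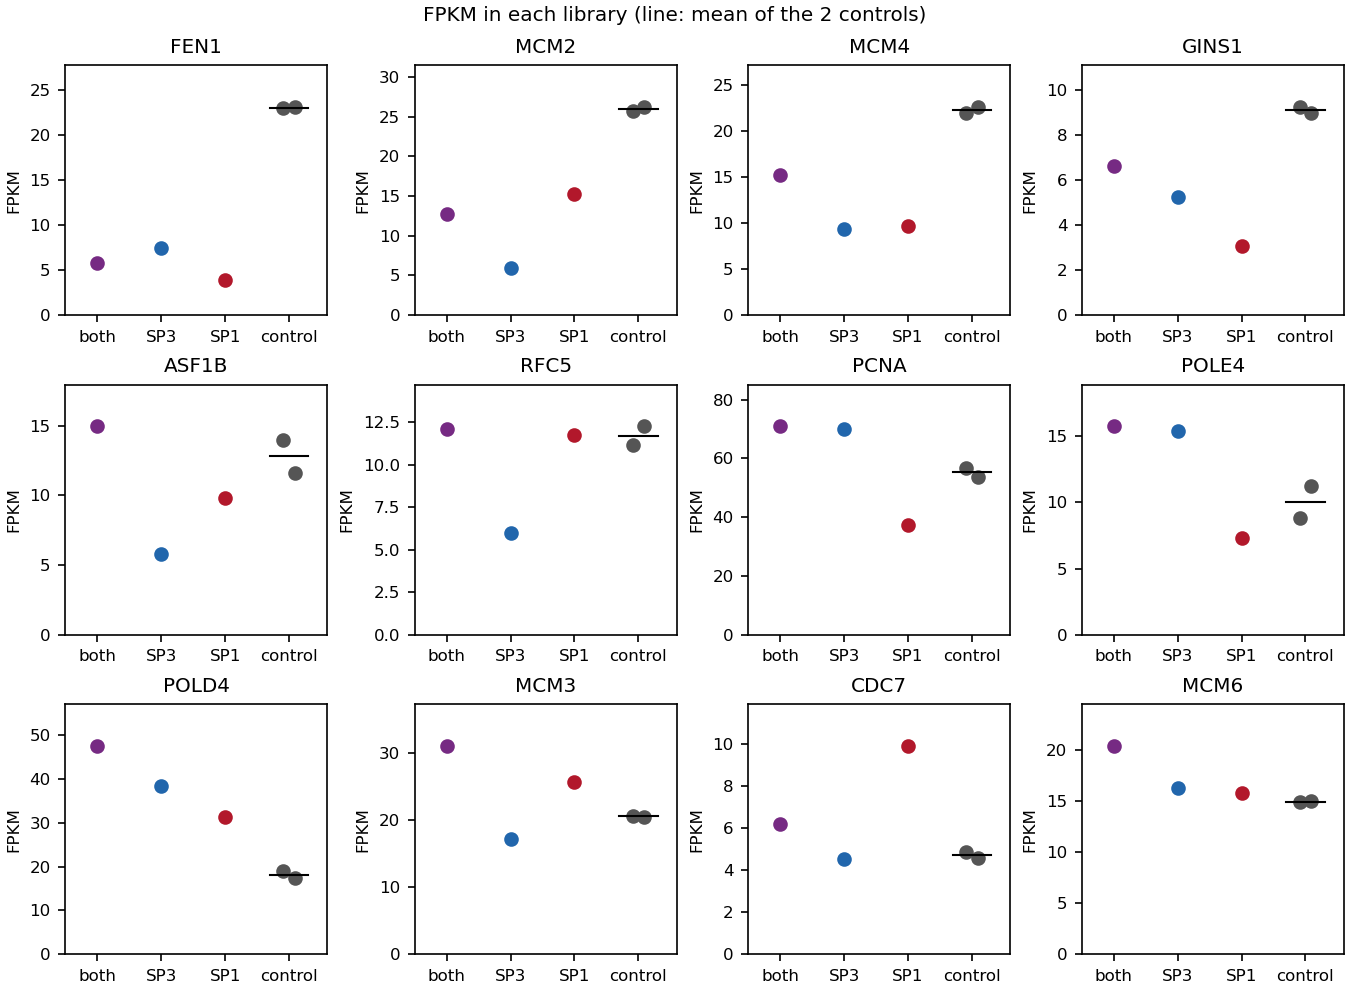
FPKM of 12 replication genes in each of the 5 libraries, with 1 point per library and a line at the mean of the 2 controls. FEN1 is low in every knockdown (5.82, 7.42 and 3.91 FPKM against 23.0 and 23.1 FPKM in the controls), MCM2 is lowest with SP3 siRNA, GINS1 with SP1 siRNA, and POLD4 is higher in every knockdown.

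The partners that complete the helicase showed the same lean towards lower levels, with GINS4 as the exception. GINS1, a GINS subunit, was at 6.62 FPKM in the double knockdown, 5.26 FPKM with SP3 siRNA, 3.07 FPKM with SP1 siRNA and 9.26 and 8.99 FPKM in the controls. Its lowest level was with SP1 siRNA, 33.7% of the control mean (28.4 to 39.8%), with a log2 difference of -1.31 ± 0.10 (adjusted p = 2.58e-08). CDC45 was at 3.61 FPKM in the double knockdown, 2.38 FPKM with SP3 siRNA, 2.02 FPKM with SP1 siRNA and 4.54 and 4.81 FPKM in the controls. It fell in all 3, by the least in the double knockdown, where the call (log2 difference -0.30, adjusted p = 0.0331) was lost when recovered reads were tested with voom. GINS4 was at 7.43 FPKM in the double knockdown, 3.81 FPKM with SP3 siRNA, 4.88 FPKM with SP1 siRNA and 3.98 and 4.19 FPKM in the controls. The double knockdown stood alone above the rest, at 182% of the control mean (159 to 207%; log2 difference 0.73 ± 0.11, adjusted p = 2.8e-05), and the single knockdowns missed the threshold. GINS2 and GINS3 were at 1.31 to 11.9 FPKM over the 5 libraries. GINS2 fell with both single siRNAs. GINS3 fell with SP3 siRNA, a call lost under median-ratio scaling and without the trend on mean level, and it had the widest gap between the controls. Its log2 difference with SP3 siRNA was -0.44, and it was -0.202 without the first control and -0.688 without the second.

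Of the 9 origin recognition and licensing genes, ORC1 and CDT1 fell in every knockdown. ORC1, the largest ORC subunit and one that cycles with the cell cycle, was at 4.43 FPKM in the double knockdown, 2.09 FPKM with SP3 siRNA, 4.81 FPKM with SP1 siRNA and 6.15 and 6.52 FPKM in the controls. It was lowest with SP3 siRNA, at 33.1% of the control mean (26.8 to 40.5%; log2 difference -1.25 ± 0.11, adjusted p = 1.27e-07). CDT1, which brings the MCM ring to origins, was at 16.4 FPKM in the double knockdown, 11.8 FPKM with SP3 siRNA, 18.4 FPKM with SP1 siRNA and 25.9 and 25.8 FPKM in the controls. Again the SP3 siRNA library was lowest and the controls highest. ORC2 was at 6.48 FPKM in the double knockdown, 11.1 FPKM with SP3 siRNA, 7.18 FPKM with SP1 siRNA and 12.9 and 11.1 FPKM in the controls. Its order was the other way round: it fell in the double knockdown (log2 difference -0.79 ± 0.10, adjusted p = 6.73e-06) and with SP1 siRNA (-0.66 ± 0.10, adjusted p = 3.72e-05), and the SP3 siRNA library lay at the lower control. ORC5 was at 2.18 FPKM in the double knockdown, 1.94 FPKM with SP3 siRNA, 3.32 FPKM with SP1 siRNA and 1.55 and 1.67 FPKM in the controls. It rose with SP1 siRNA, to 207% of the control mean (169 to 252%; log2 difference 0.73 ± 0.12, adjusted p = 0.000106). The other 5 genes of this group, CDC6, GMNN, ORC3, ORC4 and ORC6, were at 2.89 to 25.9 FPKM. In the double knockdown they missed the threshold, although voom on recovered reads and median-ratio scaling called ORC4 lower. CDC6, GMNN and ORC6 fell with SP3 siRNA, and CDC6, ORC4 and ORC6 with SP1 siRNA, where the ORC6 call was lost with voom.

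The 2 subunits of the kinase that fires origins parted company. CDC7, the catalytic subunit, was at 6.20 FPKM in the double knockdown, 4.51 FPKM with SP3 siRNA, 9.92 FPKM with SP1 siRNA and 4.88 and 4.60 FPKM in the controls. The SP1 siRNA library was highest, at 209% of the control mean (185 to 236%; log2 difference 0.93 ± 0.10, adjusted p = 1.47e-06), the double knockdown rose less (0.33 ± 0.10, adjusted p = 0.012), and SP3 siRNA missed the threshold (-0.06, adjusted p = 0.635). DBF4, its activating subunit, was at 4.32 FPKM in the double knockdown, 3.45 FPKM with SP3 siRNA, 5.77 FPKM with SP1 siRNA and 9.45 and 8.69 FPKM in the controls. All 3 knockdown libraries were below both controls. The log2 differences of DBF4 were -0.92 ± 0.10, -1.18 ± 0.10 and -0.57 ± 0.10 for the double, SP3 and SP1 knockdowns, all past the threshold.

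Of the 4 polymerase alpha-primase genes, 1 fell in the double knockdown, 3 with SP3 siRNA and 2 with SP1 siRNA, beside 31.1%, 32.0% and 28.9% of all genes. POLA1, the catalytic subunit of polymerase alpha, was at 1.28 FPKM in the double knockdown, 1.002 FPKM with SP3 siRNA, 1.13 FPKM with SP1 siRNA and 1.91 and 1.89 FPKM in the controls. It fell in each knockdown, at a level where the added 1 FPKM understates the change, and stood at 67.4%, 52.7% and 59.6% of the control mean in the double, SP3 and SP1 knockdowns. PRIM1, the catalytic primase subunit, was at 10.4 FPKM in the double knockdown, 7.11 FPKM with SP3 siRNA, 10.7 FPKM with SP1 siRNA and 10.6 and 9.94 FPKM in the controls. It fell with SP3 siRNA (log2 difference -0.47 ± 0.09, adjusted p = 0.000367) and sat within or next to the controls in the other libraries. PRIM2, the large primase subunit, was at 3.21 FPKM in the double knockdown, 1.99 FPKM with SP3 siRNA, 2.58 FPKM with SP1 siRNA and 3.90 and 3.34 FPKM in the controls. It fell with each single siRNA, and the double knockdown missed the threshold (log2 difference -0.13, adjusted p = 0.366). POLA2, at 3.83 to 5.44 FPKM, was not called against the controls.

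Polymerase delta split between its core and its smallest subunit. POLD4, that small subunit, was at 47.6 FPKM in the double knockdown, 38.4 FPKM with SP3 siRNA, 31.4 FPKM with SP1 siRNA and 18.9 and 17.4 FPKM in the controls. Every knockdown library was above both controls, and the double knockdown was highest at 262% of the control mean (241 to 285%). Its log2 difference was 1.34 ± 0.07 in the double knockdown (adjusted p = 1.05e-09), 1.04 ± 0.07 with SP3 siRNA (adjusted p = 1.69e-08) and 0.76 ± 0.07 with SP1 siRNA (adjusted p = 4.37e-07). POLD3, an accessory subunit, was at 1.35 FPKM in the double knockdown, 1.17 FPKM with SP3 siRNA, 1.27 FPKM with SP1 siRNA and 2.97 and 2.90 FPKM in the controls. The 3 knockdown libraries were alike for it, between 40.0% and 46.0% of the control mean, and all fell. POLD2, the subunit that joins the catalytic one to the rest, was at 36.0 FPKM in the double knockdown, 34.9 FPKM with SP3 siRNA, 40.5 FPKM with SP1 siRNA and 54.9 and 55.6 FPKM in the controls. It fell in each, with log2 differences of -0.61 ± 0.07, -0.65 ± 0.07 and -0.44 ± 0.07 for the double, SP3 and SP1 knockdowns. POLD1, the catalytic subunit, was at 8.40 to 12.8 FPKM, and fell with each single siRNA but missed the threshold in the double knockdown (log2 difference -0.11, adjusted p = 0.300).

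Polymerase epsilon split in the double and SP3 knockdowns, where POLE4 alone rose. With SP1 siRNA all 4 of its genes fell, beside 28.9% of all genes. POLE, the catalytic subunit, was at 7.94 FPKM in the double knockdown, 5.68 FPKM with SP3 siRNA, 7.53 FPKM with SP1 siRNA and 9.79 and 8.47 FPKM in the controls. It fell with SP3 siRNA (log2 difference -0.60 ± 0.10, adjusted p = 0.00014) and, at the edge of the threshold, with SP1 siRNA (-0.24 ± 0.10, adjusted p = 0.0487), a call lost with a pseudocount of 0.1 FPKM and without the trend. Without the first control the SP1 siRNA value was -0.151. POLE3, a histone-fold subunit, was at 14.2 FPKM in the double knockdown, 14.8 FPKM with SP3 siRNA, 9.19 FPKM with SP1 siRNA and 17.7 and 18.9 FPKM in the controls. It fell in each knockdown and was lowest with SP1 siRNA, at 50.2% of the control mean (44.3 to 56.8%). POLE4, the partner of POLE3, was at 15.7 FPKM in the double knockdown, 15.4 FPKM with SP3 siRNA, 7.34 FPKM with SP1 siRNA and 8.82 and 11.2 FPKM in the controls. It rose in the double knockdown (log2 difference 0.61 ± 0.11, adjusted p = 0.000209) and with SP3 siRNA (0.58 ± 0.11, adjusted p = 0.000354), and fell with SP1 siRNA (-0.39 ± 0.11, adjusted p = 0.00597). The fall was lost with voom on recovered reads, and was -0.236 without the second control. POLE2, at 1.41 to 2.61 FPKM, fell in each knockdown, but with voom the calls in the double and SP3 knockdowns were lost. Its log2 difference with SP3 siRNA was -0.38, and -0.25 without the second control.

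The sliding clamp and its loader did not move together. PCNA, the clamp and the gene with the highest FPKM of the 55 in the knockdown with both siRNAs, was at 70.9 FPKM there, 69.9 FPKM with SP3 siRNA, 37.3 FPKM with SP1 siRNA and 56.9 and 53.7 FPKM in the controls. The double and SP3 knockdowns were above both controls and the SP1 knockdown below them. Its log2 differences were 0.35 ± 0.07 (adjusted p = 0.000253), 0.33 ± 0.07 (adjusted p = 0.000437) and -0.56 ± 0.07 (adjusted p = 3.01e-06) for the double, SP3 and SP1 knockdowns. RFC1, the large loader subunit, was at 15.3 FPKM in the double knockdown, 10.8 FPKM with SP3 siRNA, 21.4 FPKM with SP1 siRNA and 18.5 and 16.9 FPKM in the controls. It went the other way from PCNA, lower with SP3 siRNA (log2 difference -0.66 ± 0.08) and higher with SP1 siRNA (0.26 ± 0.08, adjusted p = 0.0121), the second of which was lost under median-ratio scaling. RFC2 was at 10.8 FPKM in the double knockdown, 7.83 FPKM with SP3 siRNA, 7.73 FPKM with SP1 siRNA and 15.2 and 14.8 FPKM in the controls. All 3 knockdowns fell for this loader subunit, the single ones to nearly the same level. RFC5 was at 12.1 FPKM in the double knockdown, 6.004 FPKM with SP3 siRNA, 11.8 FPKM with SP1 siRNA and 11.2 and 12.2 FPKM in the controls. The SP3 siRNA library stood alone at 51.3% of the control mean (46.1 to 57.0%; log2 difference -0.86 ± 0.09, adjusted p = 1.24e-06), and the other knockdowns lay between the controls. RFC3 and RFC4 were at 1.26 to 24.2 FPKM. RFC4 fell with each single siRNA, with a log2 difference of -0.35 for SP1 siRNA that was -0.214 without the first control. RFC3 missed the threshold throughout, although voom, median-ratio scaling and the fit without the trend called it lower with SP1 siRNA.

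RPA, which coats single-stranded DNA, was not called in the double knockdown for any of its 3 subunits by limma on log2(FPKM + 1), where none passed an unadjusted p under 0.05 and voom called none. RPA1 was at 30.1 FPKM in the double knockdown, 20.5 FPKM with SP3 siRNA, 29.4 FPKM with SP1 siRNA and 33.8 and 32.2 FPKM in the controls. It fell with SP3 siRNA to 62.1% of the control mean (58.7 to 65.6%). RPA2 was at 21.8 FPKM in the double knockdown, 24.9 FPKM with SP3 siRNA, 14.3 FPKM with SP1 siRNA and 22.2 and 20.7 FPKM in the controls. This subunit rose with SP3 siRNA (log2 difference 0.21 ± 0.08, adjusted p = 0.0318), a call lost without the trend on mean level, and fell with SP1 siRNA (-0.56 ± 0.08, adjusted p = 1.79e-05). RPA3 was at 12.0 FPKM in the double knockdown, 10.3 FPKM with SP3 siRNA, 8.94 FPKM with SP1 siRNA and 11.5 and 11.7 FPKM in the controls. It fell with SP1 siRNA (log2 difference -0.34 ± 0.09, adjusted p = 0.00306), and SP3 siRNA missed the threshold.

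Among Okazaki fragment genes, FEN1 had the largest fall of all 55. FEN1, the flap endonuclease, was at 5.82 FPKM in the double knockdown, 7.42 FPKM with SP3 siRNA, 3.91 FPKM with SP1 siRNA and 23.0 and 23.1 FPKM in the controls. Every knockdown library was far below the controls, at 25.2% (21.6 to 29.2%), 32.1% (28.2 to 36.6%) and 17.0% (14.2 to 20.2%) of their mean for the double, SP3 and SP1 knockdowns. Its log2 differences were -1.82 ± 0.09 (adjusted p = 2.31e-10), -1.52 ± 0.09 (adjusted p = 1.95e-09) and -2.29 ± 0.09 (adjusted p = 2.24e-11) in that order. LIG1, the ligase that seals the nicks FEN1 leaves, was at 13.5 FPKM in the double knockdown, 7.05 FPKM with SP3 siRNA, 12.2 FPKM with SP1 siRNA and 11.9 and 11.2 FPKM in the controls. It fell with SP3 siRNA (log2 difference -0.64 ± 0.09, adjusted p = 1.73e-05) and not elsewhere, with the double knockdown at 0.21 (adjusted p = 0.0527) and SP1 siRNA at 0.07 (adjusted p = 0.492). DNA2, a nuclease and helicase for long flaps, was at 2.35 FPKM in the double knockdown, 1.30 FPKM with SP3 siRNA, 2.42 FPKM with SP1 siRNA and 3.61 and 3.15 FPKM in the controls. All 3 knockdowns fell, SP3 siRNA the furthest at 38.4% of the control mean (30.6 to 47.7%). RNASEH2A, the catalytic subunit of a ribonuclease that cuts RNA in hybrids with DNA, was at 18.0 FPKM in the double knockdown, 10.7 FPKM with SP3 siRNA, 14.7 FPKM with SP1 siRNA and 15.0 and 14.6 FPKM in the controls. It rose in the double knockdown (log2 difference 0.27 ± 0.08, adjusted p = 0.0106), a call lost with voom, and fell with SP3 siRNA (-0.43 ± 0.08, adjusted p = 0.00033).

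Fork protection genes included a pair of partners that differed. TIMELESS was at 5.54 FPKM in the double knockdown, 3.85 FPKM with SP3 siRNA, 8.51 FPKM with SP1 siRNA and 7.24 and 6.61 FPKM in the controls. It fell in the double knockdown (log2 difference -0.27 ± 0.10, adjusted p = 0.0301) and with SP3 siRNA (-0.71 ± 0.10, adjusted p = 2.77e-05), and rose with SP1 siRNA (0.27 ± 0.10, adjusted p = 0.0346), a rise lost under median-ratio scaling. TIPIN, which binds TIMELESS at the fork, was at 2.61 FPKM in the double knockdown, 1.88 FPKM with SP3 siRNA, 2.90 FPKM with SP1 siRNA and 1.55 and 1.56 FPKM in the controls. It was above both controls in every knockdown library and rose in the double knockdown (log2 difference 0.50 ± 0.12) and with SP1 siRNA (0.61 ± 0.12), while SP3 siRNA missed the threshold (0.18, adjusted p = 0.232). CLSPN, the adaptor that passes the checkpoint signal from ATR to CHEK1, was at 2.13 FPKM in the double knockdown, 1.49 FPKM with SP3 siRNA, 1.65 FPKM with SP1 siRNA and 2.93 and 3.08 FPKM in the controls. All 3 knockdown libraries fell for it.

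The histone loading genes fell most with SP3 siRNA. CHAF1A, the large subunit of chromatin assembly factor, was at 4.59 FPKM in the double knockdown, 2.64 FPKM with SP3 siRNA, 4.35 FPKM with SP1 siRNA and 7.32 and 6.36 FPKM in the controls. It fell in each, to 38.6% of the control mean (32.7 to 45.3%) with SP3 siRNA. CHAF1B, the middle subunit, was at 3.87 FPKM in the double knockdown, 2.24 FPKM with SP3 siRNA, 3.23 FPKM with SP1 siRNA and 3.49 and 3.35 FPKM in the controls. It fell with SP3 siRNA (log2 difference -0.45 ± 0.12, adjusted p = 0.00349), and the other knockdowns missed the threshold. ASF1B, a chaperone that hands new histones H3 and H4 to that factor, was at 15.0 FPKM in the double knockdown, 5.79 FPKM with SP3 siRNA, 9.78 FPKM with SP1 siRNA and 14.0 and 11.6 FPKM in the controls. The double knockdown was the highest library and SP3 siRNA the lowest, at 45.3% of the control mean (37.9 to 53.8%). ASF1B fell with SP3 siRNA (log2 difference -1.02 ± 0.10, adjusted p = 6.4e-07) and with SP1 siRNA (-0.35 ± 0.10, adjusted p = 0.00766), and the double knockdown missed the threshold (0.21 ± 0.10, adjusted p = 0.0819). Without the first control the ASF1B value for SP1 siRNA was -0.228.

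**Figure D4:**
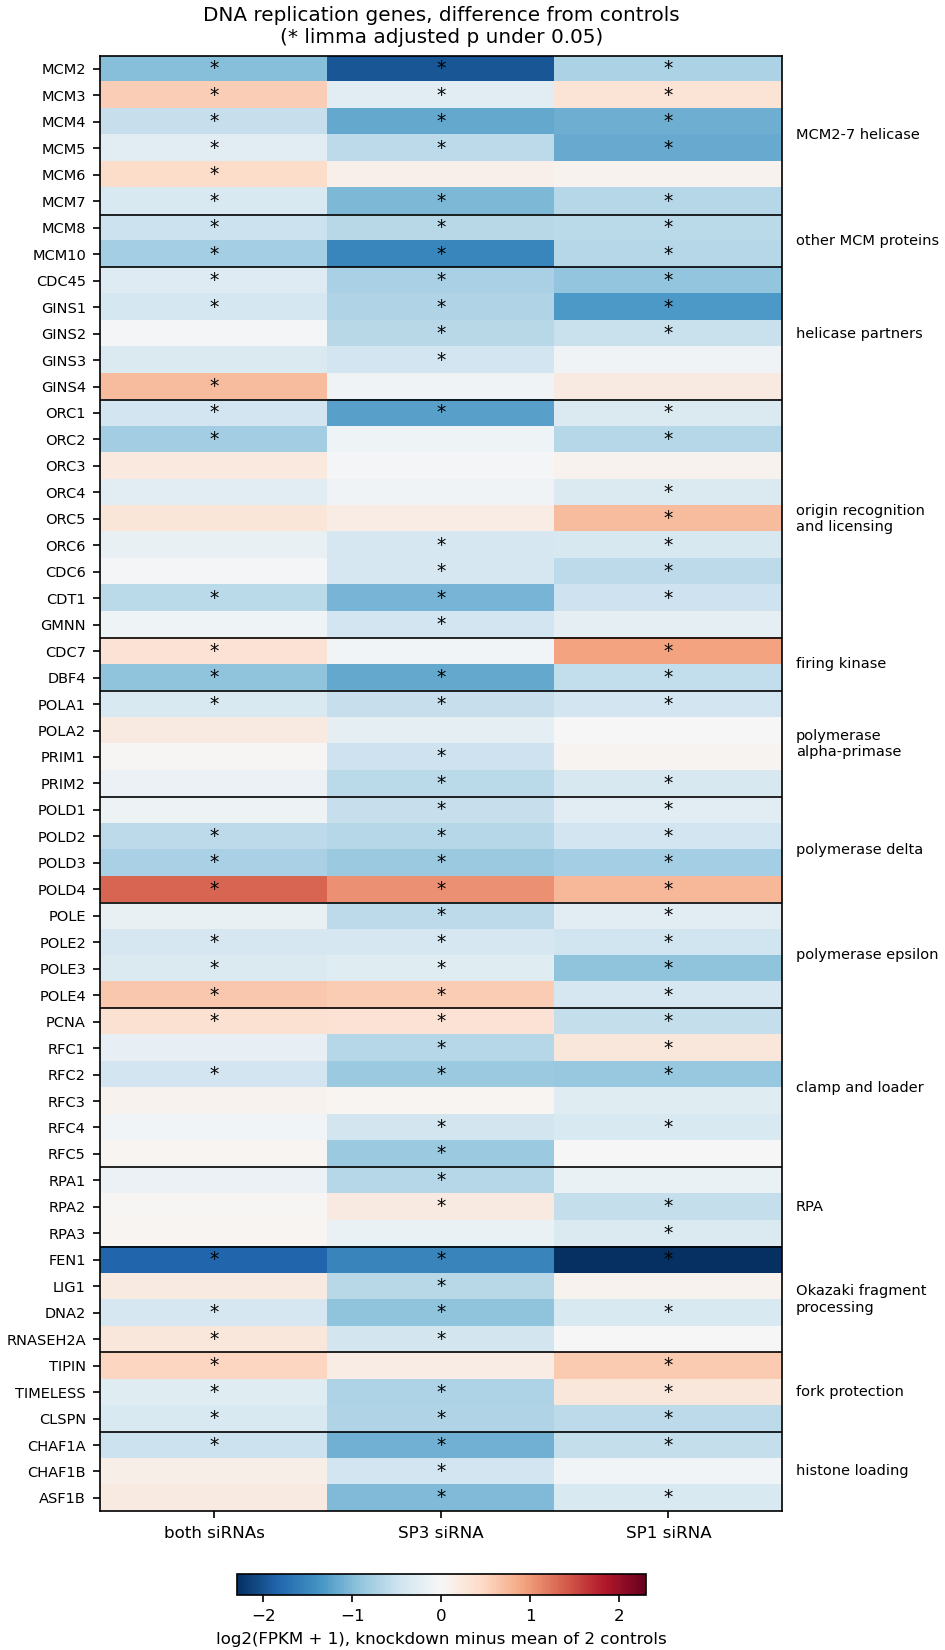
Difference of each knockdown library from the mean of the 2 controls, in log2(FPKM + 1), for the 55 replication genes grouped by role, with blue for lower, red for higher and an asterisk for a limma adjusted p under 0.05. The SP3 siRNA column holds the most blue (40 genes called lower), the double knockdown column the least (23), and POLD4 is red in all 3.

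The double knockdown was next set against each single knockdown, to ask what the second siRNA added. Against SP3 siRNA, 32 of the 55 genes (58.2%) were higher in the double knockdown and 2 (3.64%) lower, while 17.9% and 15.1% of all genes were. The 2 lower genes were ORC2 (log2 difference -0.70 ± 0.12, adjusted p = 0.000388) and FEN1 (-0.30 ± 0.10, adjusted p = 0.0332), and the FEN1 call was lost with voom and without the trend. On the log2(FPKM + 1) scale ASF1B had the largest gain, 1.23 ± 0.12 (adjusted p = 3.36e-06). MCM2 followed with 0.99 ± 0.09 (adjusted p = 2.79e-06) and RFC5 with 0.90 ± 0.11 (adjusted p = 2.12e-05). The levels of ASF1B, MCM2 and RFC5 were 15.0, 12.7 and 12.1 FPKM in the double knockdown and 5.79, 5.93 and 6.004 FPKM with SP3 siRNA. The added 1 FPKM understates changes at low level. As a percentage of the level with SP3 siRNA, the order was ASF1B (258%), MCM10 (224%), MCM2 (215%), ORC1 (212%) and RFC5 (202%). Against SP1 siRNA, 21 genes (38.2%) were higher in the double knockdown and 6 (10.9%) lower, while 21.0% and 26.4% of all genes were. On the log2(FPKM + 1) scale POLE4 had the largest gain (1.01 ± 0.13, adjusted p = 1.72e-05). PCNA (0.91 ± 0.08, adjusted p = 2.72e-07) and GINS1 (0.91 ± 0.12, adjusted p = 1.69e-05) came next. As a percentage of the level with SP1 siRNA, the order was GINS1 (215.6%), POLE4 (214.5%), MCM5 (198%) and PCNA (190%). The 6 lower genes were CDC7, TIMELESS, RFC1, ORC5, DBF4 and MCM2, of which CDC7 moved most (-0.60 ± 0.12, adjusted p = 0.000766) and MCM2 least (-0.24 ± 0.09, adjusted p = 0.0437). The MCM2 call was lost under median-ratio scaling, without the trend and with voom. By the count without a test, 17 genes were at least 1.5-fold higher and 1 lower in the double knockdown than with SP3 siRNA, against 10.8% and 7.37% of all genes. For the double knockdown over SP1 siRNA these were 13 and 3, against 9.87% and 16.9%. A total of 35 of the 55 genes had a higher FPKM in the double knockdown than in either single knockdown, against 21.1% of all tested genes. ORC2 was the 1 gene lower than in either.

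SP3 siRNA and SP1 siRNA differed from each other in both directions. Of the 55 genes 24 (43.6%) were lower and 10 (18.2%) higher with SP3 siRNA than with SP1 siRNA, against 36.2% and 26.5% of all genes. At least 1.5-fold lower were 16 (29.1%) and higher 8 (14.5%), shares near the 25.9% and 15.7% of all genes. On the log2(FPKM + 1) scale MCM2 was the furthest below (log2 difference -1.23 ± 0.09, adjusted p = 3.31e-08), then CDC7 (-0.99 ± 0.12) and TIMELESS (-0.97 ± 0.12). POLE4 was the furthest above (0.97 ± 0.13, adjusted p = 1.1e-05), then PCNA (0.89 ± 0.08, adjusted p = 1.22e-07), FEN1 (0.78 ± 0.10) and RPA2 (0.76 ± 0.09). The median over the 55 genes was -0.20, and over all genes it was -0.09. FEN1 itself was at 7.42 FPKM with SP3 siRNA and 3.91 FPKM with SP1 siRNA.

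The interaction, the log2 difference of the double knockdown from the controls minus the sum of the 2 single ones, was positive for most of the machinery. It passed the threshold above 0 for 40 of the 55 genes and below 0 for 3, while 18.5% and 21.0% of all genes did, and its median was 0.68 over the 55 genes and -0.03 over all genes. A positive value means that the double knockdown lay above the level the 2 single changes add up to. A gene that is similarly low in all 3 knockdowns and high in the controls also has a positive value. The leukocyte gene LYZ, far lower in every knockdown than in the controls, had 3.22. Of 5 leukocyte markers tested, 4 passed the threshold above 0 and 0 below. Of the 55 genes FEN1 had the largest, 1.99 ± 0.14 (adjusted p = 8.15e-08), and its double knockdown level of 5.82 FPKM lay between those of the single knockdowns. MCM4 followed with 1.77 ± 0.12 (adjusted p = 1.06e-07), MCM2 with 1.72 ± 0.12 (adjusted p = 1.23e-07), GINS1 with 1.60 ± 0.15 (adjusted p = 1.56e-06), ASF1B with 1.58 ± 0.16 (adjusted p = 2.36e-06) and MCM5 with 1.497 ± 0.13 (adjusted p = 5.85e-07). This order holds for the log2(FPKM + 1) scale, where the added 1 FPKM can place genes of low level further down. MCM10, at 1.11 to 5.64 FPKM, had 1.38 on it. The 3 negative genes were among those that rose with SP1 siRNA. They were ORC5 (-0.62 ± 0.19, adjusted p = 0.0177), CDC7 (-0.54 ± 0.16, adjusted p = 0.0129) and POLD4 (-0.46 ± 0.11, adjusted p = 0.0055). With genes of low level added to the fit, the adjusted limma test called 0 of the 55 either way, with 35 above and 2 below 0 at an unadjusted p under 0.05. In that fit the adjusted test called 0 of all 17121 genes either way. The double knockdown library is 1 sample, and all comparisons with the controls share the same 2 libraries.

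**Figure D5:**
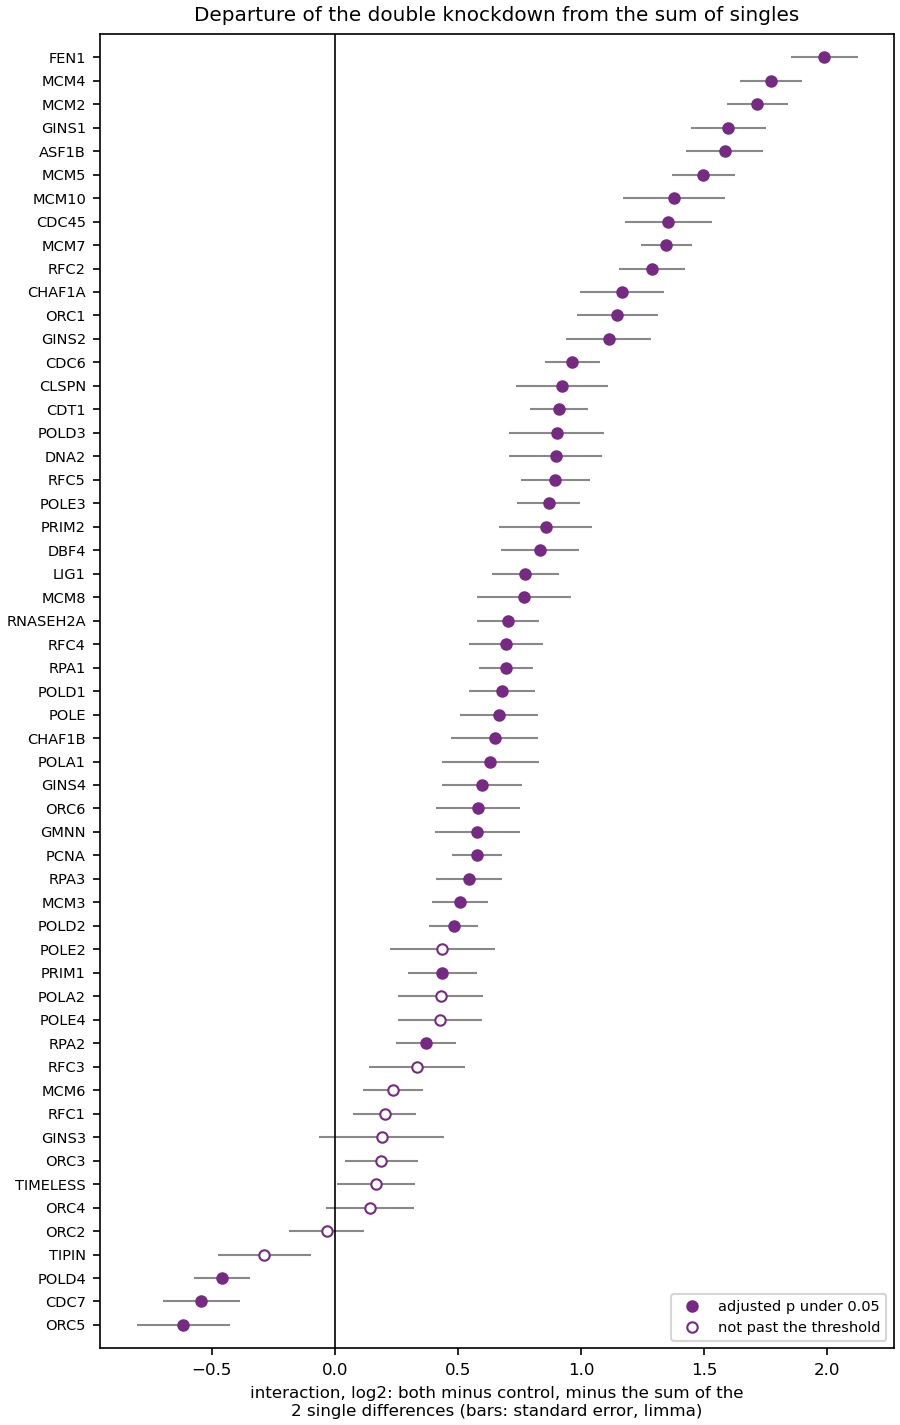
Interaction of each of the 55 replication genes on the log2(FPKM + 1) scale, sorted, with bars for the standard error and filled points for an adjusted p under 0.05 (limma). Of the filled points 40 lie above 0, led by FEN1 at 1.99, and 3 below 0, down to ORC5 at -0.62.

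Neighbouring gene groups give the setting. Of 38 other replication genes tested, 19 fell and 6 rose in the double knockdown, 24 fell and 1 rose with SP3 siRNA, and 22 fell and 4 rose with SP1 siRNA. RRM2, the small subunit of ribonucleotide reductase, was at 39.98 FPKM in the double knockdown, 17.2 FPKM with SP3 siRNA, 18.0 FPKM with SP1 siRNA and 66.1 and 64.5 FPKM in the controls, with the single knockdowns lowest. Its interaction was 2.97 ± 0.10 (adjusted p = 2.44e-10), above that of any of the 55. TICRR, also called Treslin and needed for origin firing, fell in each knockdown, and TK1, a thymidine kinase, did so too, with log2 differences of -0.67 ± 0.06, -1.38 ± 0.06 and -1.26 ± 0.06 for the double, SP3 and SP1 knockdowns. TOP1, the topoisomerase that relaxes DNA ahead of the fork, rose to 131.3, 124.4 and 105.5 FPKM in the double, SP3 and SP1 knockdowns, against 55.3 and 53.2 FPKM in the controls.

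Of 16 genes of S phase entry, 8 fell and 2 rose in the double knockdown, 13 fell and 2 rose with SP3 siRNA, and 10 fell and 1 rose with SP1 siRNA. For all genes the shares in that order were 31.1%, 32.0% and 28.9% lower and 31.8%, 29.6% and 36.5% higher. CCND1, which encodes cyclin D1, was at 77.5 FPKM in the double knockdown, 280.5 FPKM with SP3 siRNA, 65.8 FPKM with SP1 siRNA and 359.4 and 357.9 FPKM in the controls, so the libraries with SP1 siRNA were lowest. CCNE1, which encodes cyclin E1, was higher than in the controls in all 3, at 55.8, 78.2 and 26.8 FPKM in the double, SP3 and SP1 knockdowns and 15.4 and 17.1 FPKM in the controls. CCNA2 and CDK6 fell in each knockdown. Of 30 mitosis genes, 23 fell in the double knockdown, 28 with SP3 siRNA and all 30 with SP1 siRNA, with median log2 differences of -0.68, -1.18 and -1.11. TOP2A was at 12.3 FPKM in the double knockdown, 5.64 FPKM with SP3 siRNA, 10.3 FPKM with SP1 siRNA and 32.2 and 26.7 FPKM in the controls, and MAD2L1 and ANLN fell in all 3 as well. CDC20 fell in the double and SP1 knockdowns and rose with SP3 siRNA (log2 difference 0.34 ± 0.07, adjusted p = 0.000646). The interaction was above 0 past the threshold for 23 of the 38, 12 of the 16 and 28 of the 30 genes, beside 40 of the 55 replication genes and 18.5% of all genes.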

How the data were processed

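For each of 5 HCT116 libraries the authors deposited a table that lists FPKM by gene symbol. The submitters' processing notes name HTSeq 0.9.1, Cufflinks 2.2.1, HISAT2 2.0.5 and Trimmomatic 0.36 without saying what each did. Not given in the sources used here: genome build, annotation and strand handling. Overlapping genes may share reads. Of the rows, 4 with date-like symbols that occur more than once were left out.

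Testing used R 4.3.3 and limma 3.58.1, with an empirical Bayes trend, on log2(FPKM + 1), for the 11725 genes that reached 1 FPKM somewhere. All 5 libraries entered a single model with group means, and the controls gave its 1 residual degree of freedom, beside 13.95 prior ones. P-values were adjusted over all genes tested (Benjamini-Hochberg, threshold 0.05). The test was first checked on simulated data, with the same spread in every library and a small set of genes changed in the SP1 siRNA library. Because the spread was set equal, that check cannot tell whether knockdowns vary like the controls. Whole reads were recovered from the steps of the deposited FPKM values (100% of 17121 genes, tolerance 0.02 reads), with library denominators of 14678068 to 15970519 reads. The steps gave the denominators relative to each other. Their absolute scale came from the lengths of 88 single-transcript genes in the GENCODE annotation, which may not be the annotation the submitters used. The recovered reads are lower limits, and gave 95% exact conditional binomial intervals, which cover counting error only, and the voom alternative. The other alternatives were a pseudocount of 0.1 FPKM, no filter, a mean of at least 5 FPKM, median-ratio scaling, an additive model, no trend, and each control left out.

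The 55 genes and all lists were chosen with earlier results of these data known. Genes described with every library were the up to 3 largest called differences from the controls in each role, the 6 largest called interactions each way, genes called in opposite directions, and genes called against most of their role. Other lists gave up to 4 genes each by smallest p. SP1 and SP3 were given as the check of the knockdown.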

Additional observations from a re-analysis of the deposited data

Results flagged for a closer look

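The effect of the double knockdown differed from the sum of the single effects, by the limma interaction test, for 40 of the 55 replication genes in the positive direction and for 3 in the negative direction. On the log2(FPKM + 1) scale the 6 largest positive values were 1.99 for FEN1, 1.77 for MCM4, 1.72 for MCM2, 1.60 for GINS1, 1.58 for ASF1B and 1.497 for MCM5. The 3 negative values were -0.62 for ORC5, -0.54 for CDC7 and -0.46 for POLD4. Over all genes tested 18.5% had a positive and 21.0% a negative interaction past the threshold.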

How the results depend on the processing

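No paired analysis was possible because each knockdown had 1 library, so the groups share fewer than 2 replicate numbers. A pseudocount of 0.1 FPKM left 382 of 385 gene-level calls as they were, median-ratio scaling 368, no trend on mean level 365 and voom on recovered reads 361. These 4 settings moved 2 counts by over 1.5 times: both without the trend and with voom 1 gene, not 2, was lower in the double knockdown than with SP3 siRNA, and under median-ratio scaling 1 gene, not 3, was at least 1.5-fold lower in the double knockdown than with SP1 siRNA. Median-ratio scaling shifted the libraries by at most 0.07 on the log2 scale. With a mean of at least 5 FPKM, where 36 of the 55 genes were tested, 15 and not 23 fell in the double knockdown and 23 and not 35 with SP1 siRNA, since fewer genes were tested. With no filter, 9 fell and 4 rose in the double knockdown, 13 fell and 1 rose with SP3 siRNA and 14 fell with SP1 siRNA. Fewer of all genes were called either way against the controls in that fit as well. There SP3 siRNA against SP1 siRNA gave 5 lower and 2 higher of the 55 genes. Limma adjusted calls were 0 either way for the interaction and for the double knockdown against each single one, and 0 over all genes too. At an unadjusted p under 0.05 these 3 gave, of the 55 genes, 35 higher and 2 lower, 28 higher and 2 lower (against SP3 siRNA) and 19 higher and 7 lower (against SP1 siRNA). Without 1 control, the genes at least 1.5-fold higher with SP3 siRNA numbered 1 to 2, and no called direction changed. Leaving out 1 control moved the median of the 55 genes in the double knockdown and 6 called differences by over 1.5 times, each given beside its result.

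The additive model counts the departure of the double knockdown from the sum of the single effects as spread, and called 1 lower and 1 higher in the double knockdown, 2 lower and 2 higher with SP3 siRNA and 1 lower and 0 higher with SP1 siRNA. Against SP1 siRNA it called 2 lower and 2 higher in the double knockdown, against SP3 siRNA 1 lower and 0 higher, and 2 lower and 0 higher for SP3 siRNA against SP1 siRNA. In each of these comparisons the additive model called the replication genes less often, either way, than all 11725 genes tested. The main fit had called the replication genes lower more often than all genes in each knockdown against the controls. At an unadjusted p under 0.05 the counts of 0 became 8, 8 and 4 higher in the same order as they stand here. By its construction the additive fit shares 1 value between comparisons and turned the sign of 31 of 330 differences. With SP1 siRNA minus control these were MCM2 0.006, ORC1 0.16, PRIM2 0.003, POLD1 0.028, POLE 0.04, DNA2 0.03 and ASF1B 0.33. With SP3 siRNA minus control they were MCM5 0.046, CDC6 0.021 and POLE3 0.085. For the double knockdown minus SP1 siRNA they were MCM3 -0.025, MCM4 -0.41, MCM7 -0.45, GINS1 -0.009, GINS2 -0.17, CDC45 -0.17, RFC2 -0.30, FEN1 -0.66, RNASEH2A -0.13 and ASF1B -0.34. For the double knockdown minus SP3 siRNA they were MCM4 -0.36, MCM5 -0.51, MCM7 -0.086, MCM10 -0.062, GINS2 -0.035, CDC45 -0.33, CDC6 -0.19, CDT1 -0.082, RFC2 -0.32, RFC4 -0.052 and CHAF1A -0.047. The reads behind a level depend on the length assigned to the gene too: POLE4 had 79 to 172 reads at 7.34 to 15.7 FPKM, and MCM8 269 to 542 reads at 1.57 to 3.16 FPKM.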

Other observations

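Ratios of FPKM between partners of 1 complex were computed within each library, with 95% counting intervals, and were chosen with the gene values known. The size of such a ratio depends on the lengths assigned to the genes, which the counting intervals leave out. Only its change between libraries can be read. CDC7 over DBF4 was 1.43 (1.21 to 1.70) in the double knockdown, 1.31 (1.09 to 1.58) with SP3 siRNA, 1.72 with SP1 siRNA and 0.517 and 0.530 in the controls, so this ratio was higher in each knockdown than in the controls. POLD4 over POLD1 was 4.13, 4.58 and 3.06 in the double, SP3 and SP1 knockdowns and 1.47 and 1.43 in the controls. PCNA over FEN1, a clamp and a nuclease that it recruits, was 12.2, 9.43 and 9.52 in the double, SP3 and SP1 knockdowns and 2.47 and 2.32 in the controls. TIPIN over TIMELESS was 0.470, 0.489 and 0.340 in the double, SP3 and SP1 knockdowns and 0.214 and 0.236 in the controls. POLE4 over POLE was 1.98 in the double knockdown, 2.71 with SP3 siRNA and 0.975 with SP1 siRNA, while the controls themselves ranged from 0.901 to 1.33. CDT1 over its inhibitor GMNN was 3.04, 2.94 and 3.83 in the double, SP3 and SP1 knockdowns and 4.13 and 4.81 in the controls. Within the MCM2-7 ring the highest FPKM over the lowest was 2.898, 3.81 and 3.77 in the double, SP3 and SP1 knockdowns and 3.17 and 3.15 in the controls. MCM7 had the highest FPKM in every library. The lowest was MCM2 in the double and SP3 knockdowns, MCM5 with SP1 siRNA and MCM6 in both controls. Between libraries where the lowest gene differs, the change in this ratio depends on the assigned lengths too.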
